A study of Sus scrofa with 14 samples.

Results

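Growth hormone receptor signalling and its SOCS feedback were followed in pig meniscus through 6 genes: the receptors GHR and PRLR, the transcription factors STAT5A and STAT5B, and the feedback inhibitors SOCS2 and SOCS3. The genes were listed by name, and SOCS2 was chosen for its rise in the operated animals, so its difference between the groups is a description here and carries no test. Every probe whose RefSeq accession is a transcript of one of these genes was taken, which gave 10 probes of 43603 on the array, and 6 genes of the 2389 that could be named. The meniscus is the fibrocartilage pad between thigh bone and shin bone, and its tissue came from male Wuzhishan pigs, a miniature breed, aged 6 to 7 months per the labels. In the OA group (osteoarthritis, 7 pigs) the anterior cruciate ligament had been operated on 24 weeks earlier, and in the control group (7 pigs) a sham operation had been done at the same interval. The labels name neither the form of the ligament operation nor the meniscus or part of it that was taken. Each pig gave 1 single-colour array, since the series text divides 14 pigs between the groups at random.

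Growth hormone acts by binding a pair of GHR molecules, which activates the kinase JAK2 bound to their inner ends. JAK2 then phosphorylates STAT5A and STAT5B, which enter the nucleus and switch on target genes, among them IGF1 and SOCS2 itself. SOCS2 marks the receptor for degradation and so closes a feedback loop, and loss of SOCS2 gives large animals through excess growth hormone signalling. PRLR is the related receptor for prolactin and uses the same kinase and the same STAT5 proteins, while SOCS3 is induced mainly by interleukin-6 type cytokines through STAT3. In cartilage, growth hormone and locally made IGF1 support growth and matrix production.

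Values below are scaled log2 values: log2 of the processed signal minus the same array's 75th percentile over all non-control probes, so that 0 stands at that percentile and a difference of 1 is a doubling. Signals are given in arbitrary units, and levels of different probes are not compared, because probes differ in how strongly they bind. A change is the OA mean minus the sham mean from limma, given with its standard error (SE), and a call is a two-sided limma p adjusted over all tested probes that lies under 0.05. Probes that reached well above background on 7 or more of the 14 arrays were tested. In the whole experiment 3.73% of 38818 tested probes were called, and 3.23% of 2258 tested named genes by their brightest probe. An unadjusted limma p under 0.05 was found for 7593 of the 38818 tested probes. In whole tissue, fewer cells of a type and less RNA per cell cannot be told apart.

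The OA arrays were dimmer than the sham arrays and were scanned separately. The raw 75th percentile of signal was 539 ± 82.6 (SD, n = 7) on sham and 274 ± 125 (SD, n = 7) on OA arrays (two-sided exact permutation test, p = 0.0035, adjusted over 2 array measures 0.0035). The percentage of all probes well above background was 91.2 ± 1.80 (SD, n = 7) on sham and 78.1 ± 8.88 (SD, n = 7) on OA arrays (two-sided exact permutation test, p = 0.00058, adjusted 0.0012). The arrays fell into 5 scans on 3 scan days, as the file headers give them: sham 1 to 4, sham 5 to 7, OA 1 alone, OA 2 to 5, and OA 6 with OA 7. No scan or scan day held both groups, so the effects of scan and operation cannot be told apart. The tissue markers that could be read (ACAN, DCN, SPARC, HAPLN1 and SOX9 of fibrochondrocytes) were well above background on every array. Of these 5, 0 were called (0 at an unadjusted p under 0.05), beside 3.23% of all named genes.

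Across the members other than SOCS2, 0 of 7 tested probes were called in OA, beside the 3.73% called among all tested probes. An unadjusted limma p under 0.05 was found for 1 of the 7, beside 7593 of all 38818 tested probes. The changes of these 7 probes were negative for 5 and positive for 2, with a median of −0.32 against −0.05 over all tested probes. The probes of the receptor GHR had changes of 0.05 and 0.10, the STAT5 probes had changes of −0.32 to −0.49, and PRLR was too dim to test. The SOCS2 probe on which the gene was chosen was 2.79-fold higher in OA, while the other SOCS2 probe was lower. With normexp, another background correction, 2 of these 7 probes were called, both higher in OA. Under normexp 18413 of all 38818 tested probes were called, 17635 of them higher, and their median change was 0.34 over all tested probes. With every other setting tried, each array left out included, 0 of these 7 probes were called.

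**Figure D1:**
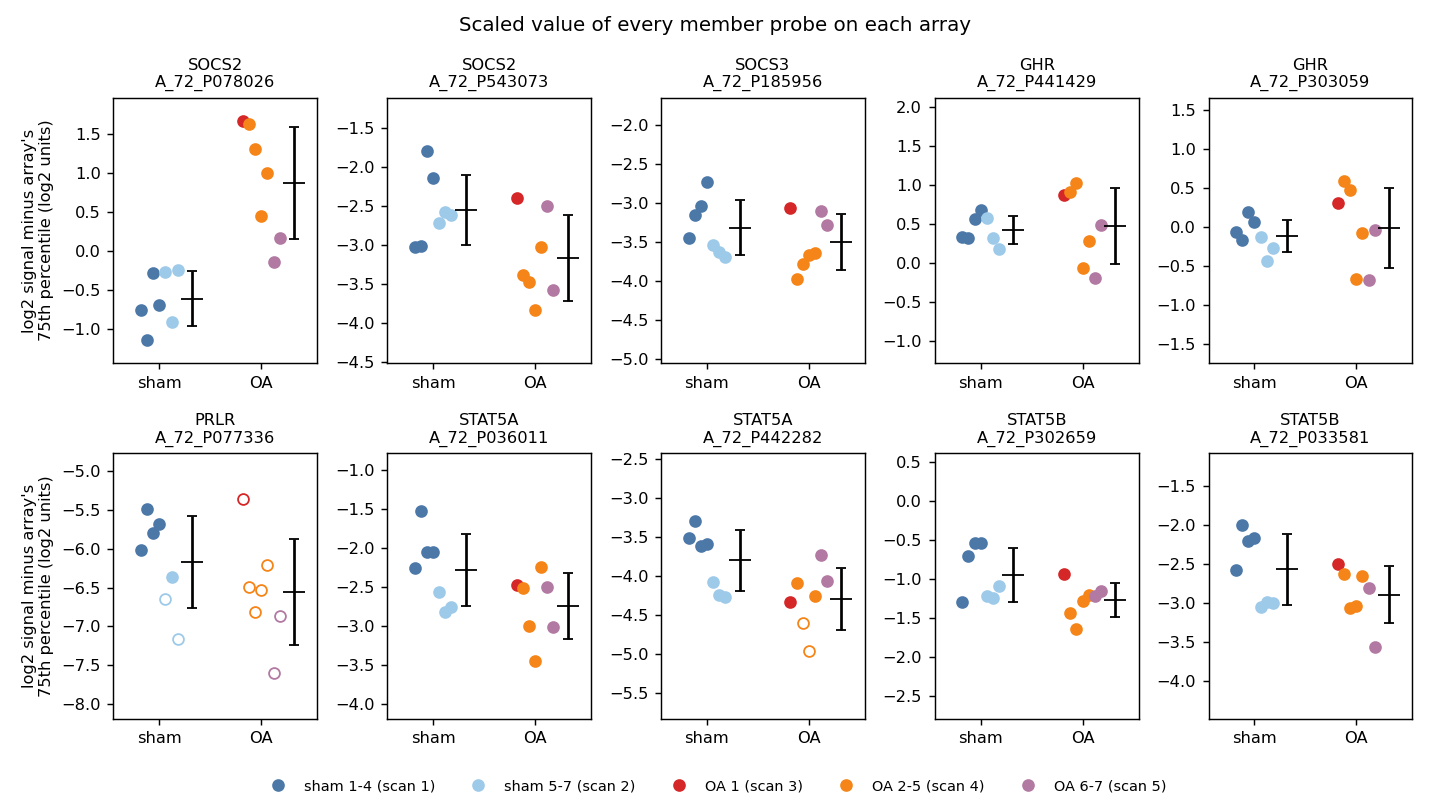
Scaled log2 value (log2 signal minus the array's 75th percentile) of all 10 member probes on each array, sham left and OA right, coloured by scan. Open circles are arrays where the probe was not well above background, bars are mean ± SD (n = 7), and all panels span the same number of log2 units. SOCS2 A_72_P078026 is higher on all 7 OA arrays than on any sham array, while the panels of the other genes overlap.

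GHR, the growth hormone receptor, was read by 2 probes carrying 1 RefSeq accession (NM_214254). Probe A_72_P441429 lay between 0.17 and 0.68 on the sham arrays, with a median of 0.34, and between −0.20 and 1.03 on the OA arrays, with a median of 0.49. The sham arrays were close together (SD 0.18, n = 7), whereas the OA arrays spread widely (SD 0.49, n = 7). OA 3 stood highest at 1.03 and OA 6 lowest at −0.20, with 3 OA arrays above the highest sham array and 2 below the lowest. The change was 0.05 ± 0.21 (SE; 95% interval −0.39 to 0.48; limma adjusted p = 0.93).

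The second GHR probe, A_72_P303059, gave the same picture. It ran from −0.44 to 0.19 on sham arrays (median −0.13), and from −0.68 to 0.59 on OA arrays (median −0.04). Again 3 OA arrays lay above and 2 below the whole sham range. The change was 0.10 ± 0.21 (SE; 95% interval −0.35 to 0.56; limma adjusted p = 0.83). Neither interval reaches a log2 change of 1 in either direction, a doubling or a halving relative to the rest of the array. The sign depended on the arrays and the fit. Without the arrays of scan 4 (OA 2 to 5) the changes were −0.038 and −0.019, and with array brightness in the fit they were −0.13 and −0.12. For A_72_P441429 the change was −0.018 without OA 1, −0.025 without OA 2 and −0.045 without OA 3.

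Before scaling, the signal of A_72_P441429 was 715 on sham and 351 on OA arrays (geometric means), and that of A_72_P303059 was 491 and 251. The raw 75th percentile, which the scaling divides by, was lower on the OA arrays as well.

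PRLR, the prolactin receptor, was read by 1 probe, A_72_P077336, at the lower end of the array's range. Its signal was 3.32 to 11.8 on the sham arrays and 1.68 to 5.48 on the OA arrays. It was well above background on 5 of 7 sham and 0 of 7 OA arrays, beside means of 91.2% and 78.1% of all probes. PRLR was therefore not tested, and in OA it has only a bound. Its scaled values, −7.16 to −5.50 (median −6.02) in sham and −7.60 to −5.36 (median −6.54) in OA, overlapped. No fold is given, since the sham mean was below the faintest signal that counted as measured on the OA arrays. A change of PRLR was not detectable at this brightness.

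STAT5A and STAT5B, the transcription factors that the receptor complex activates, are close relatives whose genes neighbour each other in the Sscrofa11.1 RefSeq table. Each was read by 2 probes. Whether a probe of one gene also binds transcripts of the other was not tested.

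The brighter STAT5A probe, A_72_P036011, ran from −2.81 to −1.52 on sham arrays (median −2.25) and from −3.45 to −2.23 on OA arrays (median −2.50). OA 4 was lowest, 3 OA arrays lay below every sham array, and 6 of 7 OA arrays were below the sham mean. The change was −0.45 ± 0.23 (SE; 95% interval −0.95 to 0.04; limma adjusted p = 0.30).

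The other STAT5A probe, A_72_P442282, ran from −4.28 to −3.30 on sham arrays (median −3.62) and from −4.97 to −3.73 on OA arrays (median −4.26). It was well above background on 7 of 7 sham and 5 of 7 OA arrays. Its change of −0.49 ± 0.22 (SE; 95% interval −0.95 to −0.03) was the one among these 7 probes with an unadjusted p under 0.05 (limma adjusted p = 0.22). With normexp background correction both probes changed sign, to 0.16 and to 0.50, and the second was then called higher (limma adjusted p = 0.0097; 0.0097 to 0.97 over all settings).

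For STAT5B, probe A_72_P302659 ran from −1.29 to −0.54 on sham arrays (median −1.09) and from −1.64 to −0.94 on OA arrays (median −1.22). The 3 highest sham arrays, sham 2, sham 3 and sham 4, all came from scan 1, and 2 OA arrays, OA 2 and OA 3, lay below the sham range. The change was −0.32 ± 0.18 (SE; 95% interval −0.69 to 0.06; limma adjusted p = 0.34). Probe A_72_P033581 ran from −3.05 to −2.00 in sham (median −2.58) and from −3.57 to −2.50 in OA (median −2.81). Its change was −0.33 ± 0.22 (SE; 95% interval −0.79 to 0.14; limma adjusted p = 0.44), and it turned to 0.25 with normexp (adjusted p range over all settings 0.29 to 0.80).

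The sham arrays of scan 1 had higher means than those of scan 2 for both STAT5 genes. For A_72_P036011 the mean of sham 1 to 4 (scan 1) was −1.97 and that of sham 5 to 7 (scan 2) −2.71, and for A_72_P302659 the means were −0.77 and −1.19. For A_72_P302659 the scans overlapped, since sham 1 of scan 1 was the lowest sham array at −1.29. The 3 OA scans lay at −2.48, −2.80 and −2.76 for the first probe and at −0.94, −1.39 and −1.19 for the second. The gaps between the sham scans were wider than the changes of −0.45 and −0.32 between the groups. The part of the scans in the group difference was not tested.

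SOCS2, the feedback inhibitor of the growth hormone receptor, was read by 2 probes that both carry NM_001097461, and the 2 probes went opposite ways. The brighter, A_72_P078026, is the one behind the choice of the gene. On the sham arrays it ran from −1.13 (sham 2) to −0.24 (sham 7), with a median of −0.69. On the OA arrays it stood at 1.67 on OA 1, 1.64 on OA 2, 1.31 on OA 3, 0.45 on OA 4, 1.00 on OA 5, −0.13 on OA 6 and 0.17 on OA 7. All 7 OA arrays were above the highest sham array, with OA 6 just above it. The change was 1.48 ± 0.28 (SE), or 2.79-fold, from means of −0.61 ± 0.36 (SD, n = 7) in sham and 0.87 ± 0.72 (SD, n = 7) in OA.

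The size of this SOCS2 difference varied between the OA scans, which hold different pigs, so scan and animal cannot be told apart. OA 1 (scan 3) stood at 1.67, OA 2 to 5 (scan 4) stood at 0.45 to 1.64, and OA 6 and 7 (scan 5) had a mean of 0.02, against means of −0.71 and −0.47 for the sham scans. With OA 6 and OA 7 as the only OA arrays the change was 0.63. Without scan 4 it was 1.17, and without scan 5 it was 1.82. OA 6 and OA 7 were also the brightest OA arrays, with raw 75th percentiles of 404 and 492 against 156 to 250 on the other 5, and with array brightness as a covariate the change was 0.78. The part of array brightness in the SOCS2 difference was not tested beyond this fit.

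A_72_P078026 was the one tested member probe with a higher unscaled mean on the OA arrays. Its signal was 191 to 490 on the sham arrays (geometric mean 350) and 214 to 716 on the OA arrays (geometric mean 464), a log2 difference of 0.41. For the 7 tested probes of GHR, SOCS3, STAT5A and STAT5B the unscaled mean was lower in OA. The plot of changes with and without scaling sets these side by side: scaling shifts every probe upward by the same array-wide amount, so the order of the probes is the same on both scales.

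**Figure D2:**
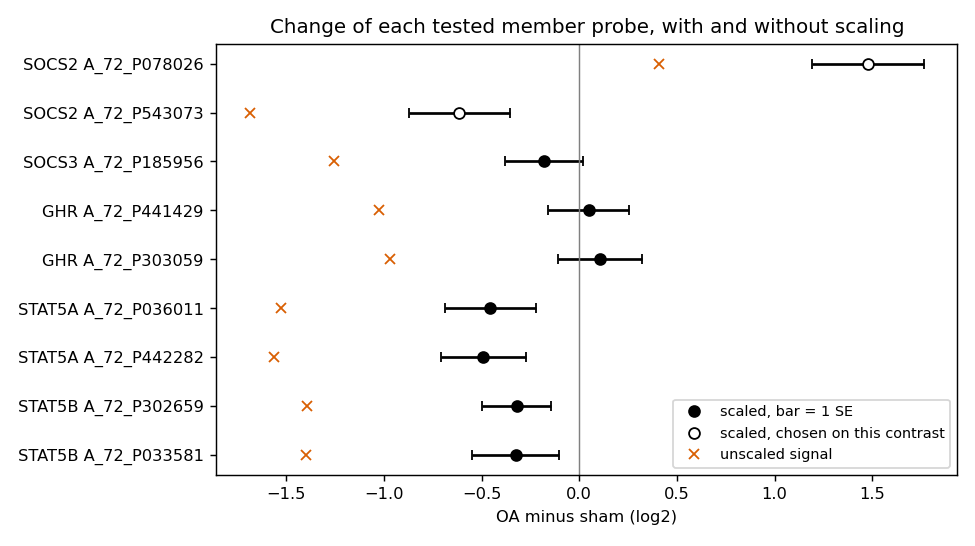
OA minus sham in log2 units for each tested member probe. Circles are limma changes of scaled values with bars of 1 SE, open for SOCS2, which was chosen on this contrast, and crosses are differences of mean unscaled log2 signal. A_72_P078026 of SOCS2 stands at 1.48 scaled and 0.41 unscaled, and the other SOCS2 probe at −0.61 and −1.69.

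The second SOCS2 probe, A_72_P543073, was dimmer, with a mean signal of 50.7 over the 14 arrays, and was well above background on all of them. It ran from −3.02 to −1.80 on sham arrays (median −2.61) and from −3.82 (OA 4) to −2.39 (OA 1) on OA arrays (median −3.38). 4 OA arrays lay below the whole sham range, and the other 3 overlapped it. The change was −0.61 ± 0.26 (SE), or 1.53-fold lower, and with normexp it was 0.19.

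A difference between 2 probes of 1 gene on the same array does not depend on scaling between arrays. For SOCS2, the brighter probe exceeded the other by 1.45 to 2.45 log2 units on sham arrays (mean 1.95 ± 0.42, SD, n = 7) and by 2.36 to 5.02 on OA arrays (mean 4.04 ± 0.86, SD, n = 7). The gap between the SOCS2 probes was thus 2.09 ± 0.36 (SE) wider in OA, and it lay above the highest sham array on 6 of 7 OA arrays, all but OA 6. It was 1.11 wider with OA 6 and OA 7 as the only OA arrays, and 0.97 wider with normexp. The SOCS2 gap rests on the values that chose the gene, so it is a description and was not tested.

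For the other genes the gap between the probes differed less between the groups, but the SOCS2 gap holds the probe on which that gene was chosen. The change of the gap was −0.06 for GHR (two-sided exact permutation test over 3432 assignments, p = 0.42, adjusted over 3 pairs 0.97), 0.04 for STAT5A (exact p = 0.80, adjusted 0.97) and 0.01 for STAT5B (exact p = 0.97, adjusted 0.97). With normexp the STAT5A gap became −0.33 (exact permutation p = 0.0035) and the STAT5B gap −0.32 (exact permutation p = 0.045). The STAT5A gap was also −0.37 with OA 6 and OA 7 as the only OA arrays (exact permutation p = 0.028). That is the smallest p the test can give with 7 sham and 2 OA arrays. OA 6 (1.24) and OA 7 (1.06), which share a scan, lay below the lowest sham array (1.26). The sign of the STAT5A gap turned without sham 1 (−0.0062), OA 1 (−0.014) or OA 5 (−0.041). The sign of the STAT5B gap turned without sham 1 (−0.049), sham 2 (−0.048), OA 4 (−0.015) or OA 7 (−0.12). With the probe positions not given in the sources used here, which part of the SOCS2 transcript each probe reads was not analysed here.

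**Figure D3:**
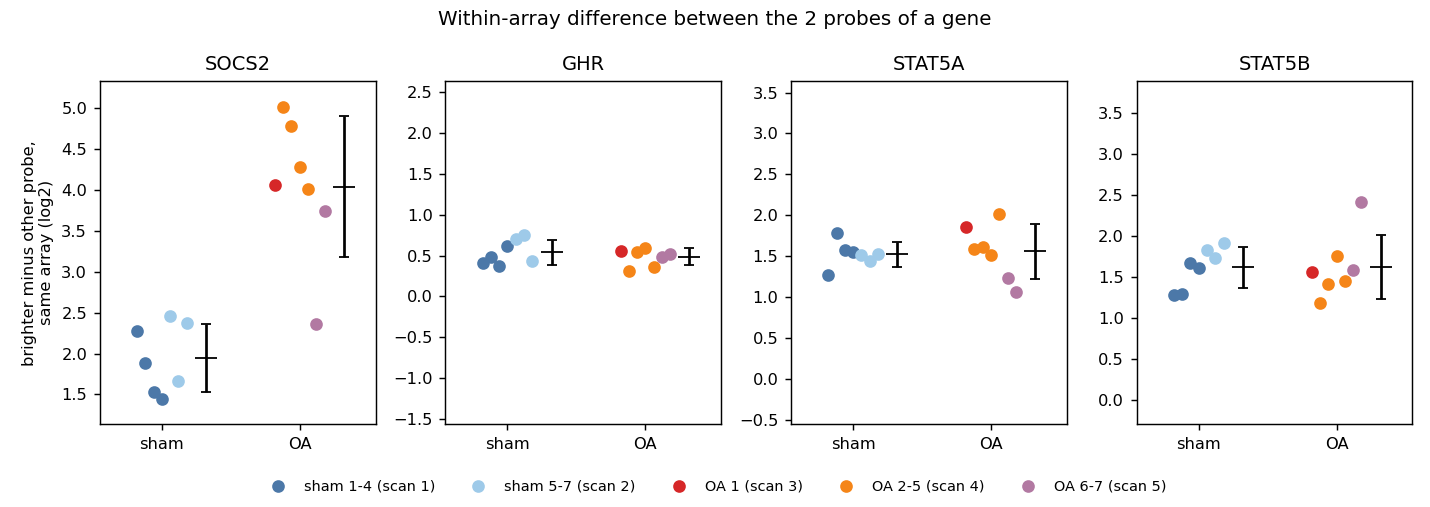
Within-array difference in log2 signal between the brighter and the other probe of SOCS2, GHR, STAT5A and STAT5B, per array, coloured by scan, with mean ± SD (n = 7). The SOCS2 difference runs from 1.45 to 2.45 in sham and from 2.36 to 5.02 in OA, while in the GHR panel the groups overlap. The SOCS2 difference holds the probe on which the gene was chosen.

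SOCS3, the inhibitor of interleukin-6 type and leptin signalling, was read by 1 probe, A_72_P185956. It ran from −3.69 to −2.74 on sham arrays (median −3.45) and from −3.97 to −3.07 on OA arrays (median −3.65). 2 OA arrays lay below the sham range, and the other 5 were inside it. The change was −0.18 ± 0.20 (SE; 95% interval −0.60 to 0.24; limma adjusted p = 0.66). Its sign depended on the processing: it was 0.17 without scan 4, 0.14 with array brightness in the fit, and 0.49 with normexp, where it was called (limma adjusted p = 0.0043; 0.0043 to 0.95 over all settings). The signal itself was low, with geometric means of 53.5 in sham and 22.4 in OA.

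SOCS2 and its receptor were then set against each other within each array. SOCS2 A_72_P078026 minus GHR A_72_P441429 ran from −1.45 to −0.41 on sham arrays (mean −1.03 ± 0.36, SD, n = 7) and from −0.32 (OA 7) to 0.80 on OA arrays (mean 0.40 ± 0.41, SD, n = 7). All 7 OA arrays lay above the highest sham array. This difference of 1.43 rests on the SOCS2 values that chose the gene, so it is a description and was not tested. Among the OA arrays the 3 with the highest SOCS2, OA 1, OA 2 and OA 3, were also the 3 with the highest GHR.

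**Figure D4:**
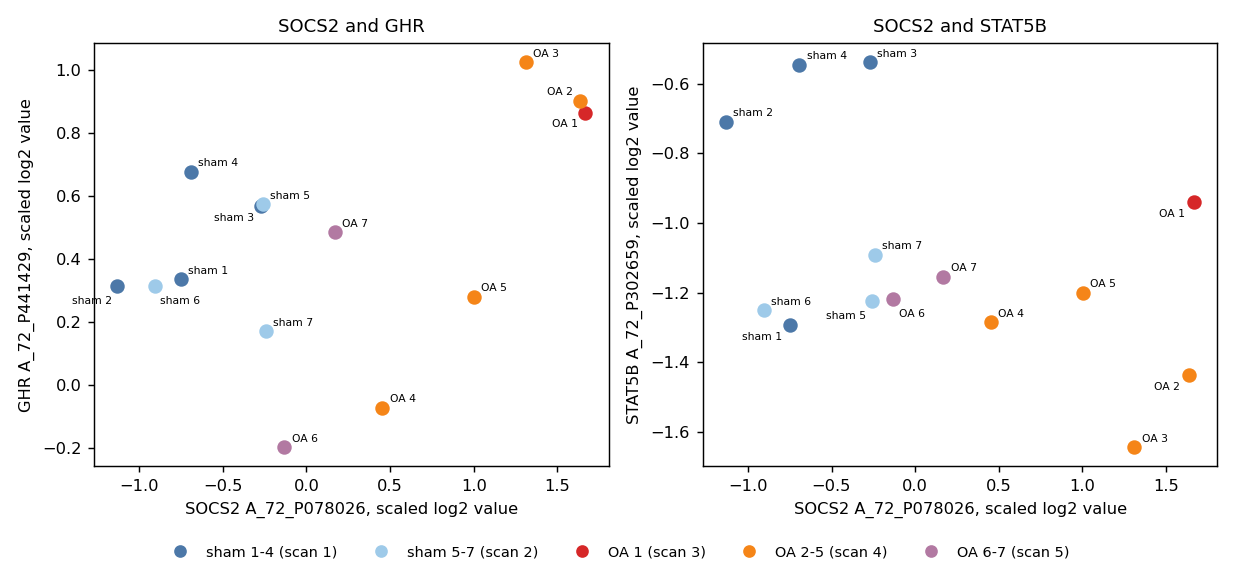
Scaled log2 values of SOCS2 A_72_P078026 (horizontal) against GHR A_72_P441429 (left panel, vertical) and STAT5B A_72_P302659 (right panel, vertical), 1 point per array, coloured by scan. OA 1, OA 2 and OA 3 stand at the top right of the GHR panel, and the sham arrays lie left of 0 on the SOCS2 axis.

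With each group's mean subtracted, SOCS2 and GHR had a Pearson r of 0.73 over the 14 arrays, which lies at the 98.5th percentile of SOCS2 against all other named genes. SOCS3 and STAT5B had r = 0.83 (96.5th percentile), and STAT5A and STAT5B r = 0.55. SOCS2 had r = 0.04 with STAT5A, −0.09 with STAT5B and −0.33 with SOCS3. These values are descriptions, since the arrays share scans and brightness.

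By the same measure over 2256 other genes, the profiles most like SOCS2 were those of CMYA5, a protein of muscle (r = 0.90), PRL, prolactin (r = 0.90), and TXNRD1, a thioredoxin reductase (r = 0.88). Most like GHR were NPEPL1 (r = 0.81), FCGRT, the neonatal Fc receptor (r = 0.81), and TNXB, a matrix protein of connective tissue (r = 0.81). Most like SOCS3 were CYP2E1 (r = 0.95), SPATA16 (r = 0.93) and ACRV1 (r = 0.93), all with a mean signal under 50 like SOCS3 itself. STAT5A was closest to PRMT5 (r = 0.93), GTF2H4 (r = 0.90) and PRKAG1 (r = 0.90), and the profiles of KITLG (r = 0.90) and SLC30A3 (r = 0.88) were among the 3 most like STAT5B.

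Within a group, none of the 5 members with a tested probe followed array brightness past the threshold. For SOCS2 in OA, r with log2 of the raw 75th percentile was −0.62 and Spearman rho −0.46 (exact permutation p = 0.16 and 0.30, adjusted over 10 relations 0.71 and 0.60). Without OA 6 and OA 7 the r was 0.55, so the negative value rests on those arrays. In sham it was 0.01 (rho −0.11; exact permutation p = 0.96 and 0.84, adjusted 0.96 and 0.84), and −0.73 without sham 2 and sham 3. The other 8 relations had adjusted exact permutation p for r of 0.71 or more. For STAT5A in OA r was 0.25, and 0.96 without OA 6 and OA 7.

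Of 11 tested adipocyte genes 2 were called, LEP and FASN, beside 3.23% of all named genes. The median change of the list was 0.58, with 9 genes positive and 2 negative. The list was chosen with earlier results of these data known, so its share of calls is a description. The 2 other probes of FASN had negative changes, and so had the other probe of LEP (−0.34). The list's mean scaled value ran from −0.07 to 0.20 on sham arrays and from −0.12 to 1.45 on OA arrays. It was highest on OA 2 (1.45) and OA 7 (1.17) and lowest on OA 1 (−0.12). On these arrays SOCS2 A_72_P078026 stood at 1.64, 0.17 and 1.67. Within groups the list's mean had r = 0.22 in sham and 0.14 in OA with SOCS2, and r = 0.52 in sham and 0.42 in OA with GHR. For SOCS2 in OA, r was 0.61 with the skeletal muscle list, 0.50 with the fibrochondrocyte list and −0.09 with the macrophage list. In sham these were 0.13, 0.05 and 0.10. For GHR the same lists had r of 0.61, 0.17 and −0.54 in OA and 0.19, −0.44 and −0.20 in sham. Each r is over 7 arrays that share scans and brightness. The part of adipocytes or of the other cell types in the member values was not tested.

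Among other cell types, the skeletal muscle list had 1 of 15 genes called (TNNI1), beside 3.23% of all named genes. The macrophage (4 genes), T cell (7), neutrophil (4), endothelial (3), erythroid (1) and hepatocyte (3) lists had 0 called. Over these 6 lists 3 genes had an unadjusted limma p under 0.05, beside 7593 of all 38818 tested probes. Neutrophil markers lay at −4.03 to −2.75 on sham and −3.51 to −1.22 on OA arrays. The hepatocyte genes, from a tissue where GHR is abundant, had mean signals of 66.9 for ALB, 783.5 for APOA1 and 22.9 for TTR. Their part in the GHR values was not tested.

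Around the 6 genes, the pathway was read through 5 lists of other genes, each gene by its brightest probe. These lists were chosen with earlier results of these data known, so their shares of calls are descriptions. Of the other SOCS and feedback genes, 4 of 24 listed had a tested probe. In OA 0 of 4 were called, beside 3.23% of all named genes. An unadjusted limma p under 0.05 was found for 1 of the 4, beside 7593 of all 38818 tested probes. SOCS4 changed by 0.35 ± 0.20 (SE, limma adjusted p = 0.35), SOCS5 by −0.38 ± 0.22 (adjusted p = 0.37), and PTPN1, a phosphatase that acts on JAK2, by −0.44 ± 0.19 (adjusted p = 0.22). The list's median was −0.12, against 0.00 over all named genes. CISH, the other classic STAT5-driven feedback gene, was not analysed here.

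Of the 9 listed Janus kinases and STATs 8 had a tested probe, and 1 of 8 was called, beside 3.23% of all named genes. STAT6, the transducer of interleukin-4 signalling, ran from −2.96 to −1.99 on sham arrays and from −1.91 to −1.59 on OA arrays, with no overlap. Its brighter probe was 0.73 ± 0.17 (SE) higher in OA (limma adjusted p = 0.023), while its other probe, of almost the same brightness, had a change of −0.38 ± 0.20 (adjusted p = 0.31). The call was lost without sham 1 (0.70, limma adjusted p = 0.053) or OA 3 (0.70, adjusted p = 0.052), and without OA 7 a count of 2 genes was called. JAK2, the kinase of the growth hormone receptor, was named for its role after its values were seen. It lay at 0.09 to 0.98 on sham and 0.12 to 0.87 on OA arrays, a change of −0.02 ± 0.17 (SE; 95% interval −0.38 to 0.34; limma adjusted p = 0.96), whose sign turned without sham 1, sham 2, sham 7, OA 1 or OA 3 (0.0009 to 0.055). The median of the list was 0.07.

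Of the growth hormone axis, 21 of 29 listed genes had a tested probe. Of these, 2 of 21 were called, PRL and GHRL, beside 3.23% of all named genes, and the median was −0.02. PRL, the ligand of PRLR, ran from −3.06 to −2.02 on sham arrays and from −2.06 to −0.97 on OA arrays by its brightest probe. It was 1.03 ± 0.24 (SE) higher in OA (limma adjusted p = 0.026), but its other probes had changes of 0.33 and −0.77, neither called. GHRL, the precursor of the growth hormone secretagogue ghrelin, was 0.61 ± 0.16 (SE) higher (limma adjusted p = 0.049). The PRL call was lost without sham 1, 2, 4 or 6 or OA 2 or 3 (0.94 to 1.00, limma adjusted p 0.050 to 0.060). The GHRL call held when OA 1 was left out, and leaving out any other array ended it (0.52 to 0.66, adjusted p 0.052 to 0.11). IGF1, the main growth factor under growth hormone control and also named for its role after its values were seen, ran from 0.03 to 2.07 on sham and from 0.97 to 3.43 on OA arrays. Its change was 0.37 ± 0.37 (SE; 95% interval −0.42 to 1.15; limma adjusted p = 0.62), and −0.20 without scan 4.

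Of 55 listed ligands and receptors of other JAK-STAT pathways, 27 had a tested probe. Of these 27, 5 were called, beside 3.23% of all named genes, with a median of −0.08 for the list. LIF, an interleukin-6 type cytokine, was 0.68 ± 0.14 (SE) higher in OA (limma adjusted p = 0.014) and LEP, the adipocyte hormone leptin, 0.74 ± 0.16 (adjusted p = 0.021). IL2RG, the common gamma chain of interleukin receptors, was 1.09 ± 0.25 higher (adjusted p = 0.023) and CSF3, the neutrophil growth factor, 0.90 ± 0.23 (adjusted p = 0.037). The IL2RG call was lost without sham 1 (1.07, limma adjusted p = 0.051). The CSF3 call held without sham 2, OA 1, OA 6 or OA 7 and was lost without any 1 of the other 10 arrays (0.80 to 0.93, adjusted p 0.051 to 0.083). The other probes of LEP, IL2RG and CSF3 had negative changes of −0.34, −0.90 and −0.36, none of them called. IFNGR2, which pairs with IFNGR1 to bind interferon gamma, fell by 0.72 ± 0.16 (SE, limma adjusted p = 0.019). With scan as a random block, with array brightness in the fit, and without scan 4, none of the 8 called genes of the 3 lists (IFNGR2, IL2RG, LEP, LIF, CSF3, STAT6, PRL and GHRL) passed the threshold. The calls of IFNGR2, IL2RG, LEP, LIF, CSF3, PRL and GHRL were also lost with the replicate block, with scan day as a random block, and without scans 3 and 4.

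Of 25 listed genes that STAT5 is known to drive, 12 had a tested probe, and 0 of 12 were called, beside 3.23% of all named genes. In this list 5 genes had an unadjusted limma p under 0.05, beside 7593 of all 38818 tested probes. The list's median was 0.19. CSN2, the milk protein beta-casein and the textbook STAT5 target of the mammary gland, ran from −0.62 to −0.04 in sham and from −0.15 to 0.34 in OA. Its change was 0.50 ± 0.15 (SE, limma adjusted p = 0.080). It passed the threshold with quantile normalization, median scaling, normexp and the authors' table (0.31 to 0.51, limma adjusted p 0.035 to 0.047; 0.035 to 0.65 over all settings). 3 of its 6 other probes were called higher (log2 changes of 0.87 to 1.00), and the remaining 3 had changes of −0.16 to 0.38. The milk proteins WAP and LALBA had changes of −0.95 ± 0.36 (SE, limma adjusted p = 0.15) and −0.62 ± 0.24 (adjusted p = 0.16). WAP was well above background on 7 of 7 sham but 3 of 7 OA arrays, so its change rests mostly on OA values that were not measured above background. Its direction depended on the processing: it was 0.03 without scan 4, and with normexp it was called higher at 0.59 (limma adjusted p = 0.0055; 0.0055 to 0.98 over all settings). LALBA changed by −0.79 without OA 1, where it was called lower (limma adjusted p = 0.029), and had values of −0.09 with normexp and −0.09 without scan 4. Its other probes had changes of −0.90, 0.42 and −0.05, none called. Without OA 1 the list had 2 genes called, the other being WAP.

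With normexp, where 18413 of all probes were called, the counts were 2 of the SOCS and feedback genes, 2 of the Janus kinases and STATs, 8 of the growth hormone axis, 18 of the other ligands and receptors and 7 of the STAT5 targets.

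**Figure D5:**
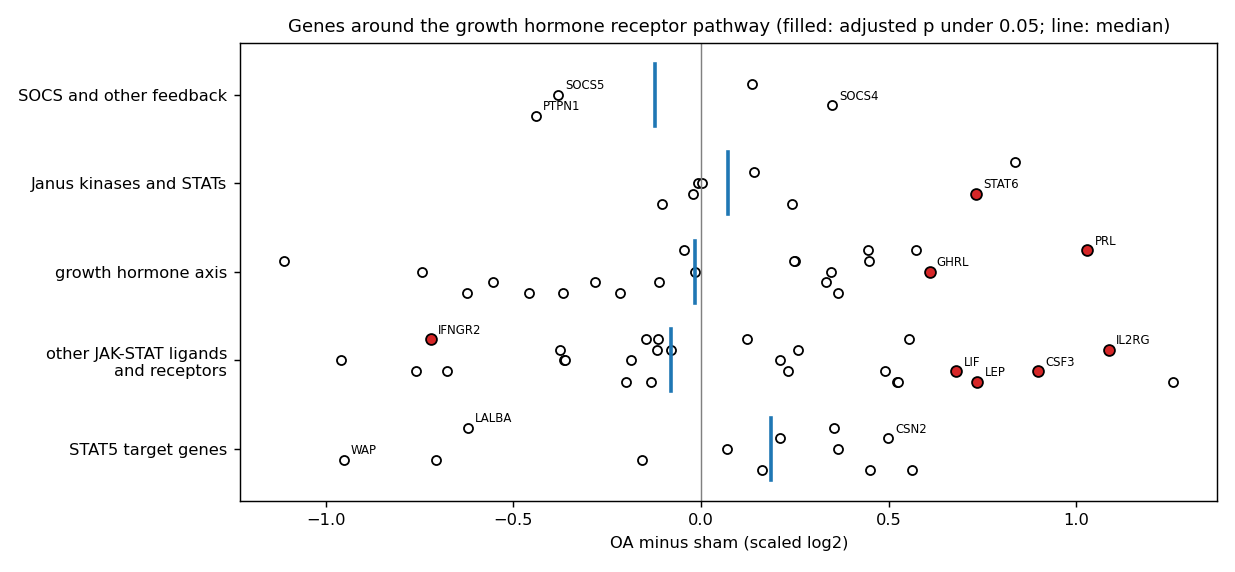
OA minus sham (scaled log2) for the brightest tested probe of each gene in the 5 pathway lists, filled where the limma adjusted p is under 0.05, with blue lines at the list medians and names for the genes picked by the naming rule. The medians lie between −0.12 and 0.19, and the called genes are STAT6, PRL, GHRL, LEP, LIF, IL2RG, CSF3 and, lower in OA, IFNGR2.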

How the data were processed

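RNA of 14 menisci was measured on single-colour Agilent arrays. Spot intensity values were deposited as scanner output; per the file headers they came from Feature Extraction 11.0.1.1, background-subtracted and not normalized between arrays. The authors' deposited log2 table, its making not given in the sources used here, followed the scanner signal (Spearman rho 0.994 to 1.00, median 6.00 per array) and served as an alternative. Marked spots (82) were set missing, and 0 were saturated. Scaled log2 values were fitted with limma 3.58.1 in R 4.3.3 (lmFit, eBayes), with Benjamini-Hochberg adjustment over 38818 probes, and the fit was checked on simulated data. Genes were named by matching RefSeq accessions to the Sscrofa11.1 gene table: 5461 of 5779 probes with an accession matched. The number of arrays limits precision.

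Members and lists were chosen with earlier results of these data known. Named genes were every member probe, each list's called genes or else the 3 smallest p, and the 3 most alike profiles. One gene that this rule picks is not reported here. Alternatives covered scaling, background correction, filters, blocks, array brightness and arrays left out. Normexp (offset 50) used the median spot signal in place of the planned mean signal. Leaving out scan 4 or scan 5 was chosen after seeing the data.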

Additional observations from a re-analysis of the deposited data

Results flagged for a closer look

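In 32 groups of 7 arrays checked for an array far from the others, 1 stood out: sham 4 had 95.2% of its probes well above background, above 89.7% to 91.1% on the other 6 sham arrays, with a gap of 0.756 of the group's range. Chance gives about 1 such group in 20. No member probe stood out in this way. Without sham 4 the change of SOCS2 A_72_P078026 was 1.46, beside 1.48 with all arrays.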

How the results depend on the processing

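The call count over all tested probes, 1449 here, was 2242 with quantile normalization, 18413 with normexp, 2551 without the filter and 2256 in the authors' table. It was 18 with scan and 149 with scan day as a random block, 4 with array brightness as a covariate, 195 without scans 3 and 4, 236 without scan 4 and 2555 without scan 5. Leaving out 1 array gave 730 to 2710, the extremes being sham 1 and OA 1. The cause was not tested. Replicate numbers do not pair the animals (correlations between arrays of the same number −0.19 to 0.27). With the replicate block 335 probes were called, 0 of them members other than SOCS2, and the SOCS2 change was 1.48.

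With normexp, 2 of the 7 member probes other than SOCS2 were called, and the changes became 0.19 for SOCS2 A_72_P543073, 0.49 for SOCS3, 0.16 and 0.50 for STAT5A, 0.25 for STAT5B A_72_P033581 and 0.59 for WAP, all reversed. The median change over all tested probes moved upward as well, from −0.05 in the main fit to 0.34 with normexp. The probe gap with normexp was 0.97 for SOCS2, −0.33 for STAT5A and −0.32 for STAT5B. With brightness as a covariate, A_72_P078026 of SOCS2 stood at 0.78, SOCS3 at 0.14, GHR at −0.13 and −0.12, IGF1 at −0.54 and JAK2 at 0.24. Without scans 3 and 4 they were 0.63, 0.13, −0.28, −0.24, −0.42 and 0.21, the SOCS2 gap 1.11 and the STAT5A gap −0.37. Without scan 4, SOCS3 was 0.17, GHR −0.038 and −0.019, IGF1 −0.20, JAK2 0.068 and WAP 0.028. Leaving out 1 array gave −0.045 to 0.16 for GHR A_72_P441429, −0.10 to 0.055 for JAK2, −0.041 to 0.12 for the STAT5A gap and −0.12 to 0.080 for the STAT5B gap. The cause was not tested.

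Against array brightness, leaving out the 2 arrays farthest from the median turned r to −0.73 (SOCS2, sham), 0.55 (SOCS2, OA), 0.41 (SOCS3, sham), 0.33 (GHR, OA), 0.40 (STAT5A, sham) and 0.059 (STAT5B, sham). Quantile normalization turned it to 0.034 for SOCS3 in sham and −0.031 for STAT5A in OA. Over all settings the SOCS2 A_72_P078026 change ran from 0.63 to 1.82. SOCS2 was chosen for its rise, and all 7 OA arrays lay above every sham array for this probe. Its sign therefore could not turn in a fit that only left out arrays. Low signal limits PRLR, SOCS3 and STAT5A A_72_P442282, whose mean signals over the 14 arrays were 4.47, 34.6 and 22.2.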
